A study of Mus musculus with 7 samples.

Results

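The 9 genes described here belong to the neuronal cytoskeleton and were followed through the single-cell library of the mouse trigeminal ganglion: Nefl, Nefm and Nefh (the light, medium and heavy neurofilament subunits), Ina (alpha-internexin), Prph (peripherin), Gap43 (a growth cone protein), Tubb3 (neuronal beta-tubulin), Stmn2 (a stathmin of growing axons) and Mapt (tau). They were taken by symbol, and all 9 of 9 were found among the 32285 genes of the matrix. The series holds 1 ganglion library, made from wild type mice at postnatal day 3.5 with droplet capture, and 6 libraries of molar tissue at postnatal day 7.5 that were not analysed here. The labels do not say how many animals or ganglia went into the ganglion library, and it has no replicate, so no test was made. Intervals are exact, at 95%, and cover counting error only.

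Intermediate filaments are rope-like polymers that fill axons, and neurofilaments set much of an axon's calibre. Nefl, Nefm and Nefh assemble together, alpha-internexin joins them in many neurons, and peripherin is the filament protein typical of neurons that project outside the brain and spinal cord. Sensory ganglia hold large neurons with myelinated A-fibre axons, known for abundant neurofilaments, and small neurons with thin C-fibre axons, known for peripherin. Gap43, Stmn2, Tubb3 and Mapt act on the membrane skeleton and microtubules of growing axons.

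The library held 149040354 unique molecular identifiers (UMIs, each 1 captured RNA molecule) over 13065 barcodes, and 9427 barcodes passed the filters on genes, UMIs and mitochondrial share. Deep neurons were barcodes with at least 20000 UMIs, at most 20% mitochondrial UMIs, and at least 30 UMIs of Tubb3, Stmn2 and Prph together per 10,000 UMIs. There were 375 of them, with a median of 96005 UMIs and a range from 20111 to 330393. Since Tubb3, Stmn2 and Prph chose the cells, their levels in these cells are a description. The gate value was 30.3 to 39.0 in the 7 neurons just inside it and 20.4 to 29.9 in the 10 deep barcodes just outside. A gate on 6 other neuron genes (Snap25, Uchl1, Avil, Scn9a, Isl1 and Elavl4) found 384 cells, 374 of them the same. The sensory neuron genes Avil, Isl1 and Pou4f1, not used to choose the cells, summed to a median of 6.45 UMIs per 10,000, against 0.200 in erythroid cells of the same library, which should lack these genes. In 361 of the 375 neurons the sum was at least 10 times the erythroid level. Schwann or satellite glia markers were raised in 57 deep neurons and globin genes in 50, and no doublet caller was run.

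Each member was placed on the mouse genome (GRCm38, GENCODE vM21, by symbol). Nefl (ENSMUSG00000022055) lies at chr14:68083863-68089095 on the plus strand, and Nefm (ENSMUSG00000022054) at chr14:68082590-68124846 on the minus strand. The annotated span of Nefm thus covers the whole of Nefl, and 1108 exonic bases are shared on opposite strands, which is 32.8% of the exonic bases of Nefl and 19.2% of those of Nefm. The sources used here do not say whether counting used the strand, so how reads in the shared bases were divided is uncertain. Ina (ENSMUSG00000034336, chr19:47014698-47025327, plus strand) shares 456 exonic bases with Nt5c2 on the opposite strand. Nefh (ENSMUSG00000020396) lies at chr11:4938754-4948064 on the minus strand, and Prph (ENSMUSG00000023484) at chr15:99055174-99058978 on the plus strand. Gap43 (ENSMUSG00000047261) lies at chr16:42248442-42340651 on the minus strand, and Stmn2 (ENSMUSG00000027500) at chr3:8509360-8561606 on the plus strand. Tubb3 (ENSMUSG00000062380) lies at chr8:123411424-123422015 and Mapt (ENSMUSG00000018411) at chr11:104231390-104332090, both on the plus strand. All 9 are protein coding, and none of the remaining 6 shares exonic bases with another annotated gene.

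RefSeq promoter sequences (GRCm38.p6) were matched by symbol for 3 of the 9 members, 1 filament gene of the peripheral type, 1 filament gene of the central type and 1 tubulin, described below. The 100 bases before each start in the promoter source are shown 5′ to 3′ on the plus strand. Capitals mark TATAAA (the core of a TATA box) and GGGCGG (the core of a GC box), each searched on both strands. For Ina and Tubb3 these starts differ from the GENCODE starts given above. The Tubb3 window lies within the GENCODE span of the gene, and the Ina window ends short of the GENCODE start.
Prph, chr15:99055074-99055173: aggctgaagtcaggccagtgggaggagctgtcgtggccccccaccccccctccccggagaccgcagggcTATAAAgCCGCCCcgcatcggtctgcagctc
Ina, chr19:47014581-47014680: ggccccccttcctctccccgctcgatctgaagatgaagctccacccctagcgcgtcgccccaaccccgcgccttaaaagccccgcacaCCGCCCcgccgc
Tubb3, chr8:123411453-123411552: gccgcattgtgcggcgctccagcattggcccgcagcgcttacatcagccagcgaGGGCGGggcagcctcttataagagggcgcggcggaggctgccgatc
Prph held 1 TATAAA, beginning 31 bases before its start, followed after 1 base by 1 GGGCGG on the opposite strand. Ina and Tubb3 held no TATAAA and 1 GGGCGG each. Among 32851 promoter windows of this length, 5.56% held TATAAA and 24.7% held GGGCGG. The matches describe these letters only.

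The members made up 1.70% of all UMIs of deep neurons, and 86.1% of all member UMIs in the library were in these 375 of 13065 barcodes. In UMIs per 10,000, the pooled level was 21.2 for Nefl (21.04 to 21.35), 10.4 for Nefm (10.3 to 10.5), 3.36 for Nefh (3.30 to 3.42) and 2.00 for Ina (1.95 to 2.04). Prph stood at 52.3, Stmn2 at 43.3 and Tubb3 at 23.2, as the gate favours, while Gap43 stood at 8.99 (8.89 to 9.09) and Mapt at 4.80 (4.73 to 4.87). These levels are not corrected for transcript length or capture, so ratios and shares between genes are read only by how they differ between groups of cells.

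What set the members apart was their spread from neuron to neuron. The coefficient of variation over the 375 neurons was 183% for Nefm, 161% for Nefh, 109% for Nefl and 86.6% for Ina. It was 51.8% for Gap43, 46.4% for Mapt, 34.5% for Prph, 31.4% for Tubb3 and 30.9% for Stmn2. The last 3 are gate genes, and the effect of the gate on their spread was not tested. Nefm was at 0.51 per 10,000 at the 10th percentile of neurons, 1.95 at the median, 30.2 at the 90th percentile and 131 in the highest neuron. Stmn2 at the same points was 28.03, 41.9, 55.4 and 151. Gap43, which the gate did not use, ran from 3.97 at the 10th to 15.4 at the 90th percentile, and Mapt from 2.54 to 7.41. Nefm and Nefh were low in most neurons and high in a minority.

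Deep neurons were divided by subtype markers, none of which is a member: a neuron entered a group when exactly 1 list passed its limit. The A-fibre-like group (Ntrk2, Ntrk3, Pvalb, Calb1, Cadps2) held 42 neurons. The groups known from C-fibre neurons were Mrgprd (Mrgprd, Lpar3, Cd55; non-peptidergic nociceptors) with 98, peptidergic (markers including Tac1, Adcyap1 and Calca) with 88, C-low-threshold (Tafa4, Slc17a8, Zfp521; gentle touch) with 36, Trpm8/Foxp2 (Trpm8 is the cold receptor) with 21, Nppb/Sst (itch) with 13 and Mrgpra3/Mrgprx1 (itch) with 8. The Trpm8/Foxp2 and Mrgpra3/Mrgprx1 groups rest on 2 markers each and are called by those genes. All groups counted as C-fibre are so called from their markers alone, and axon type was not measured. Another 27 neurons passed several lists and 42 passed none. Genes outside the lists bore out the A-fibre-like group: Esrrg stood at 0.520 per 10,000 there and 0.00243 in the C-fibre groups together, Slc17a7 (a glutamate transporter) at 0.816 and 0.0243, and the nociceptor sodium channel Scn10a at 0.231 and 4.55. Median depth ran from 78339 UMIs (peptidergic) to 143150 (Mrgpra3/Mrgprx1), with 109680 in the A-fibre-like group. Raised glial markers were seen in 26 of the 88 peptidergic and 7 of the 42 A-fibre-like neurons.

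**Figure D1:**
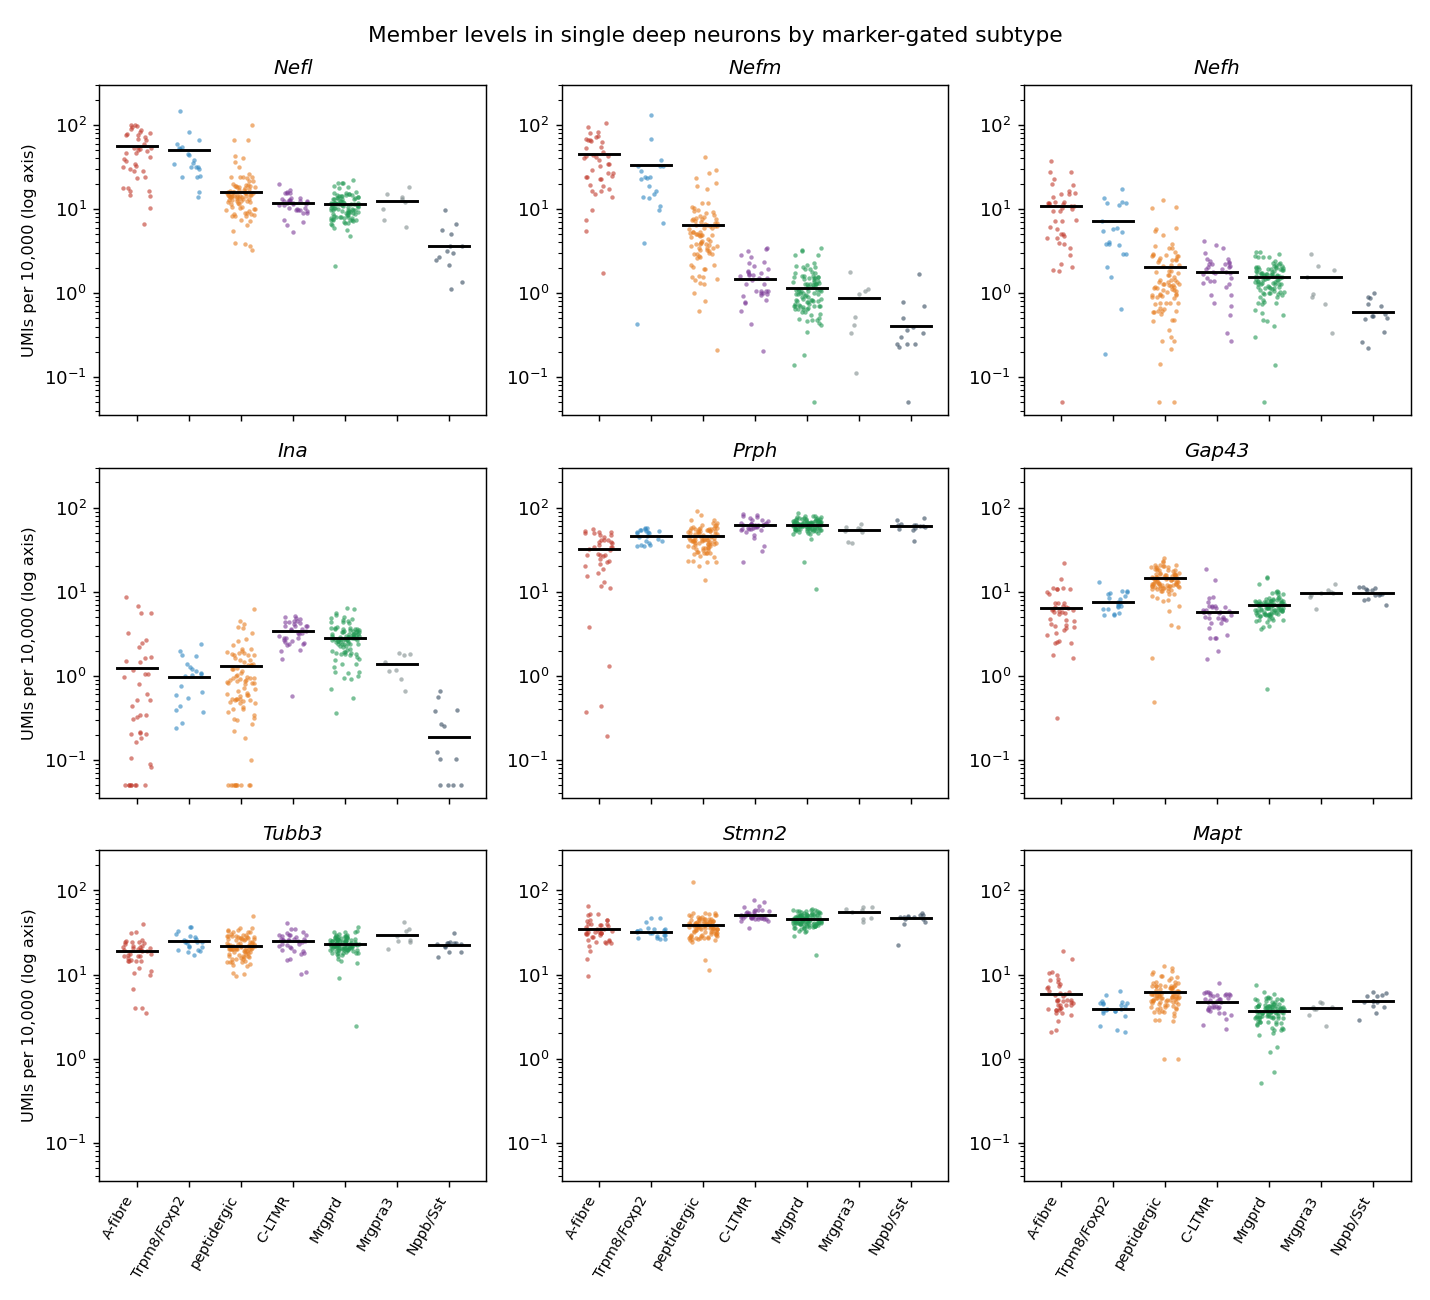
Level of each member in single deep neurons (points; UMIs per 10,000, log axis, neurons with 0 drawn at the bottom) by marker-gated group, with the pooled level of the group as a black line. Nefl, Nefm and Nefh are highest in the A-fibre-like and Trpm8/Foxp2 groups and lowest in Nppb/Sst neurons, while Tubb3, Stmn2 and Mapt lie close together.

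The 3 neurofilament subunits were the members that separated A-fibre-like from C-fibre neurons. Nefm ran from 1.76 to 106 per 10,000 over the 42 A-fibre-like neurons, with a median of 34.4, and had a median of 1.59 over the 264 C-fibre neurons. The groups overlapped, since peptidergic neurons reached 41.4 and Trpm8/Foxp2 neurons 131, but 38 of the 42 A-fibre-like neurons lay above the 90th percentile of the C-fibre neurons. Pooled, Nefm was 9.20-fold higher in A-fibre-like neurons (8.99 to 9.42).

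Nefh, the subunit with the long phosphorylated tail that spaces filaments in large axons, had a median of 9.78 in A-fibre-like and 1.45 in C-fibre neurons and was 5.21-fold higher when pooled (5.01 to 5.43). Nefl, the core subunit that the others need for assembly, had medians of 47.9 and 12.2 and was 3.67-fold higher (3.61 to 3.73). The order of the ratios also showed in the make-up of the pool: there were 0.804 Nefm UMIs per Nefl UMI in A-fibre-like neurons (0.789 to 0.820), 0.394 in peptidergic and 0.102 in Mrgprd neurons. Nefh per Nefl moved less, at 0.193, 0.126 and 0.136 in the same groups.

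The remaining 6 members lay within 2-fold. Mapt was 1.26-fold higher in A-fibre-like neurons (1.20 to 1.32), with 5.78 against 4.59 per 10,000. Tubb3 had a ratio of 0.82, Stmn2 0.79 and Gap43 0.70, and Prph and Ina each had 0.57. Counted over the family, 3 of 9 members were at least 2-fold higher in A-fibre-like neurons and 0 of 9 at least 2-fold lower, where 13.6% of the 14971 genes with at least 20 UMIs were that much higher and 9.91% that much lower. The ratios are those of 1 library, and neurons of a group are not replicates of it.

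Trpm8/Foxp2 neurons were counted among the C-fibre groups but had neurofilament levels above those of the other C-fibre groups. Nefl ran from 13.7 to 146 per 10,000 over the 21 neurons (median 35.5), Nefm from 0.43 to 131 (median 22.6) and Nefh from 0.19 to 17.2 (median 5.31). In the other C-fibre groups together, the medians were 11.7, 1.51 and 1.36. Pooled, Nefm was 12.2-fold higher in Trpm8/Foxp2 neurons than in the other C-fibre groups (11.8 to 12.6), Nefh 4.33-fold (4.06 to 4.61) and Nefl 4.05-fold (3.96 to 4.15). That makes 3 of 9 members at least 2-fold higher, beside 8.41% of all genes, and 1 of 9, Ina at a ratio of 0.43, at least 2-fold lower, beside 18.4% of all genes.

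One of the 21 neurons, at 161528 UMIs, held 36.7% of the Nefm UMIs and 26.8% of the Nefl UMIs of the group. Without it, a choice made after seeing the data, the ratio to the other C-fibre groups was 8.52 for Nefm, 3.72 for Nefh and 3.27 for Nefl.

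Set directly against Trpm8/Foxp2 neurons, A-fibre-like neurons had 1.10 times the Nefl (1.07 to 1.13), 1.34 times the Nefm and 1.48 times the Nefh. Without the 1 deep Trpm8/Foxp2 neuron described above these ratios were 1.36 (1.32 to 1.40), 1.92 (1.86 to 1.99) and 1.73 (1.61 to 1.85). None of the 9 members differed by 2-fold between these 2 groups, while 16.7% of all genes were that much higher and 4.57% that much lower in A-fibre-like neurons. The A-fibre genes were far lower in Trpm8/Foxp2 than in A-fibre-like neurons: Slc17a7 stood at 0.0232 and Esrrg at 0.00581 per 10,000, and Runx3 had 0 UMIs. Scn10a and Scn11a, both nociceptor channels, had 2 UMIs each there. Leaving this group out of the C-fibre groups took the A-fibre-like ratio to 16.4 for Nefm, 6.42 for Nefh and 4.45 for Nefl, with again 3 of 9 members at least 2-fold higher (14.1% of all genes) and 0 lower (9.84%). The Prph ratio was then 0.56.

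**Figure D2:**
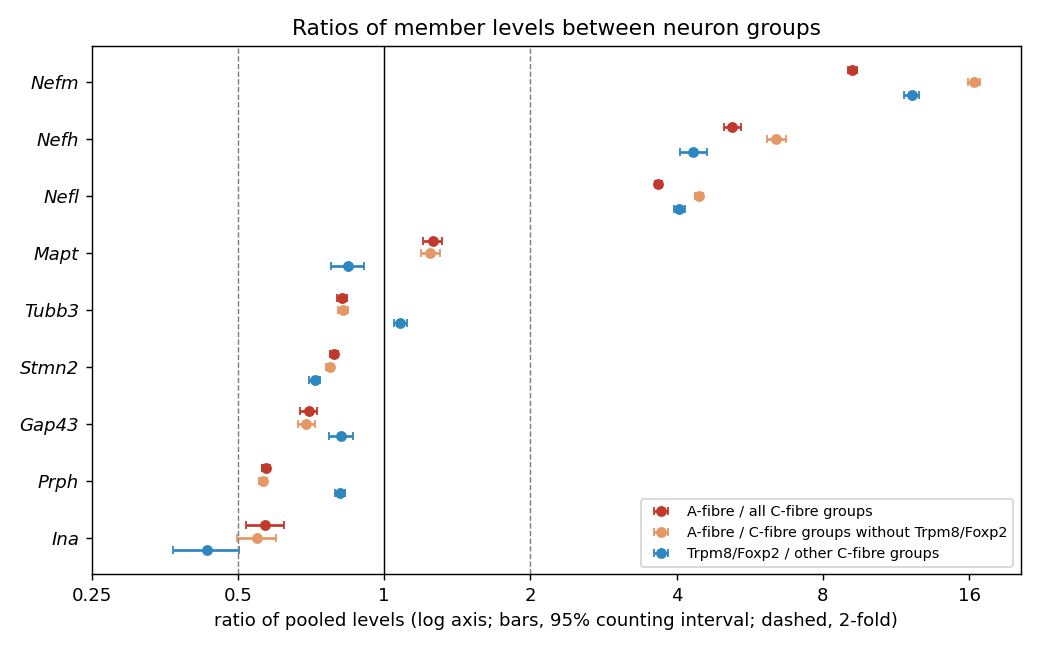
Ratio of pooled member levels between neuron groups (log axis) with 95% counting intervals, for A-fibre-like neurons over all C-fibre groups, over the C-fibre groups without Trpm8/Foxp2, and for Trpm8/Foxp2 over the other C-fibre groups. Nefm, Nefh and Nefl lie beyond the dashed 2-fold line in all 3 comparisons, with Nefm at 9.20, 16.4 and 12.2.

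Among the groups with little neurofilament, peptidergic neurons stood somewhat apart. Nefm had a median of 4.89 per 10,000 in peptidergic neurons and 1.01 in the Mrgprd, Mrgpra3/Mrgprx1, Nppb/Sst and C-low-threshold neurons together, and the pooled ratio was 5.56 (5.27 to 5.88). Pooled, Nefl was 1.47-fold and Nefh 1.34-fold higher. The medians were 14.3 against 10.8 for Nefl, but for Nefh the peptidergic median was the lower one, 1.25 against 1.47. Gap43, a growth cone protein of the inner membrane, had its highest level here: 14.4 per 10,000 (14.2 to 14.7) against 7.10, a ratio of 2.04 (1.98 to 2.09). Its lowest peptidergic neuron was at 0.49, the median at 13.5 and the highest at 25.6, and 76 of the 88 neurons lay above the 90th percentile of the compared groups. Mapt was also highest in peptidergic neurons, at 6.11 against 4.0 (ratio 1.53, 1.47 to 1.59). At least 2-fold higher were 2 of 9 members, Nefm and Gap43, beside 14.7% of all genes. At least 2-fold lower was 1 of 9, Ina at 0.49, beside 6.1% of all genes. Glial markers were raised in 26 of the 88 peptidergic neurons, and without all neurons with raised glial markers the ratio was 2.12 for Gap43, 5.99 for Nefm and 1.58 for Mapt. The Gap43 ratio lies near the 2-fold limit and was under it in 6 alternatives: 1.93 with the marker limits doubled, 1.97 without Calca in the peptidergic list, 1.97 as a mean over cells, 1.96 with neurons thinned to 20000 UMIs, 1.90 with the leading list deciding and 1.59 as UMIs per cell.

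Gap43 ordered the groups differently from the neurofilaments. After peptidergic neurons came Nppb/Sst at 9.77 and Mrgpra3/Mrgprx1 at 9.65, whose intervals overlap (9.20 to 10.4 and 9.09 to 10.2), then Trpm8/Foxp2 at 7.61, Mrgprd at 6.90, A-fibre-like at 6.45 and C-low-threshold at 5.80. Mapt was 6.11 in peptidergic and 5.78 in A-fibre-like neurons, whose intervals overlap (5.93 to 6.30 and 5.56 to 6.02). Nppb/Sst (4.83) and C-low-threshold (4.69) neurons followed without differing beyond their intervals. Mrgpra3/Mrgprx1 (3.96), Trpm8/Foxp2 (3.91) and Mrgprd (3.71) neurons had the lowest Mapt levels, again with overlapping intervals. Across groups the highest level was 2.49 times the lowest for Gap43, 1.65 times for Mapt, 1.72 times for Stmn2 and 1.53 times for Tubb3. For Nefh it was 18.3 times and for Nefl 15.3 times. For Nefm no such value is given, because the lowest group, Nppb/Sst at 0.407, rested on 46 UMIs. It was also not above the 0.601 per 10,000 of the erythroid cells, which were far shallower.

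The lowest neurofilament levels were in Nppb/Sst neurons, a group of 13. Nefl ran from 1.13 to 9.62 per 10,000 (median 3.17), Nefm from 0 to 1.70 (median 0.33) and Nefh from 0.22 to 0.99 (median 0.54). Against all other grouped neurons the pooled ratio was 0.17 for Nefl (0.15 to 0.18) and 0.17 for Nefh (0.13 to 0.22). The Nefm ratio was 0.037 on 46 UMIs, and the level behind it, 0.407 per 10,000, lies below the erythroid level of 0.601. These levels come from unlike depths, with medians of 87412 UMIs in the neurons and 10064 in erythroid cells. As plain counts, Nefm had 46 UMIs over the 13 neurons and 527 over 768 erythroid cells. Whether Nefm in these neurons lay above background was not tested. The erythroid levels of Nefl (1.07) and Nefh (0.193) were below those of the Nppb/Sst neurons (3.65 and 0.592). Ina was at a ratio of 0.089 (0.055 to 0.14), on 21 UMIs, and 4 of the 13 neurons had no Ina UMI. With the marker limits halved the ratio was 0.094 for Nefm and 0.25 for Nefl, with the limits doubled 0.023 for Nefm and 0.052 for Ina, and with neurons thinned to 20000 UMIs 0.15 for Ina. That is 4 of 9 members at least 2-fold lower, beside 21.8% of all genes, and 0 of 9 higher, beside 6.42%. Prph in the same neurons was 60.4 per 10,000, 1.15 times that of the others, and Tubb3 was 0.99 times.

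Ina, which pairs with neurofilaments in the central nervous system, did not follow Nefl, Nefm and Nefh. Its level was highest in C-low-threshold neurons, at 3.37 per 10,000 (3.17 to 3.58), and next in Mrgprd neurons, at 2.84 (2.74 to 2.95). Every one of the 36 and of the 98 neurons had an Ina UMI, with lowest values of 0.57 and 0.36. Mrgpra3/Mrgprx1 (1.38), peptidergic (1.31) and A-fibre-like (1.22) neurons had overlapping intervals. Trpm8/Foxp2 neurons (0.96, 0.82 to 1.12) overlapped only the lower end of the A-fibre-like interval (1.12 to 1.33), and Nppb/Sst neurons were lowest (0.19). A-fibre-like neurons were uneven: 8 of 42 had no UMI, the median was 0.39 and the highest neuron reached 8.65. That neuron is 1 of 4 without a UMI of Avil, Isl1 or Pou4f1, described below, and without these 4 the A-fibre-like to C-fibre ratio of Ina was 0.52 in place of 0.57.

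Peripherin is the filament gene that the gate used, so its levels are given as a description. Its pooled level was 63.1 per 10,000 in Mrgprd, 61.8 in C-low-threshold, 60.4 in Nppb/Sst, 53.6 in Mrgpra3/Mrgprx1, 46.2 in Trpm8/Foxp2, 45.6 in peptidergic and 32.1 in A-fibre-like neurons. The intervals of C-low-threshold (60.9 to 62.6) and Nppb/Sst (59.0 to 61.9) overlap, as do those of Trpm8/Foxp2 (45.2 to 47.2) and peptidergic (45.1 to 46.1). The A-fibre-like neurons ran from 0.19 to 55.3, and none of the 42 lay above the 90th percentile of the C-fibre neurons.

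**Figure D3:**
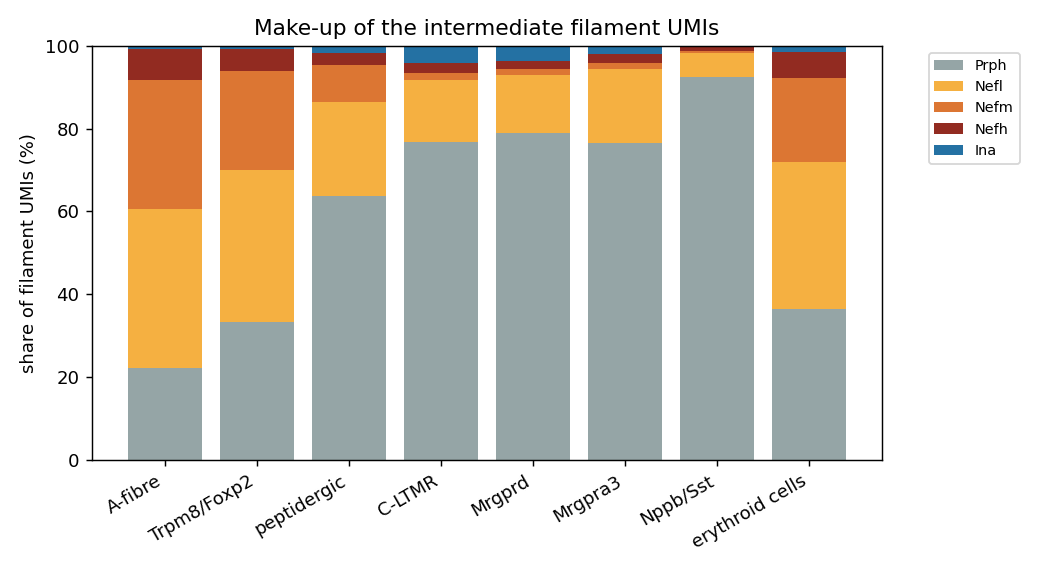
Share of the summed UMIs of Prph, Nefl, Nefm, Nefh and Ina (%) taken by each gene, in each neuron group and in erythroid cells, which serve as background. Prph falls from 92.6% in Nppb/Sst to 22.1% in A-fibre-like neurons, and stands at 36.4% in erythroid cells.

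Put together as the make-up of all filament UMIs, Prph was 92.6% in Nppb/Sst neurons, 78.9% in Mrgprd, 76.9% in C-low-threshold, 76.6% in Mrgpra3/Mrgprx1, 63.8% in peptidergic, 33.3% in Trpm8/Foxp2 and 22.1% in A-fibre-like neurons. Nefl made up 38.6% and Nefm 31.0% in A-fibre-like neurons, and 36.7% and 24.1% in Trpm8/Foxp2 neurons. Ina was below 5% in each group, with 4.20% in C-low-threshold and 3.56% in Mrgprd neurons at the top. The lower share of Prph in Trpm8/Foxp2 than in peptidergic neurons came with nearly equal Prph levels.

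Neurons were also sorted by their summed Nefl, Nefm and Nefh, with at least 40 per 10,000 called neurofilament-rich. The sum is a range, and 24 neurons lay between 30 and 50. Of 375 neurons, 77 were rich: 36 of 42 A-fibre-like (85.7%, exact binomial interval 71.5 to 94.6), 17 of 21 Trpm8/Foxp2 (81.0%, 58.1 to 94.6) and 8 of 88 peptidergic (9.09%, 4.01 to 17.1). None of the 98 Mrgprd neurons was rich, which allows a share of up to 3.69%, and none of 36 C-low-threshold, 13 Nppb/Sst or 8 Mrgpra3/Mrgprx1 neurons. The other 16 were 5 with several lists and 11 with none. The 8 rich peptidergic neurons, which the sum chose, were set against the other 80 on genes outside it. Pooled, Gap43 was at 14.9 in the rich and 14.4 in the others, Prph at 48.8 and 45.2, and Mapt at 5.99 and 6.13. Among the 8, 1 neuron at 330393 UMIs, beside a median of 67436, weighs heavily in these and the following pooled values. That neuron had Gap43 at 20.6 and Ina at 3.78. Over the 8, Gap43 ran from 3.77 to 25.5 and Ina from 0.53 to 4.46. Calca, the gene of a vasodilator peptide, was at 24.8 in the rich and 45.6 in the other peptidergic neurons, and Scn11a at 0.365 and 2.27, on 27 UMIs in the rich ones. Ina was at 2.57 (2.22 to 2.96) and 1.16 (1.07 to 1.24), Tubb3 at 28.5 and 21.4. Trpm8 was at 0.419 (0.285 to 0.595, 31 UMIs) in the rich and 0.0523 (0.0360 to 0.0735) in the others, and Foxp2 at 0.230 (17 UMIs) and 0.0745, beside 5.57 for Trpm8 in the Trpm8/Foxp2 group.

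**Figure D4:**
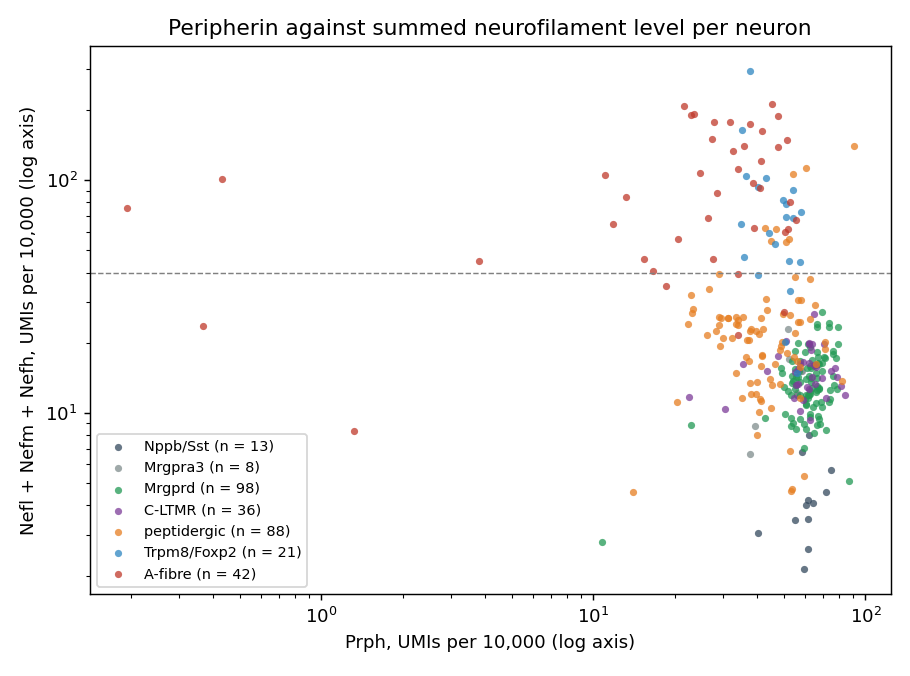
Prph against the sum of Nefl, Nefm and Nefh in single neurons (UMIs per 10,000, both axes log), coloured by group, with the limit of 40 dashed. The 98 Mrgprd neurons stay under the limit with Prph mostly near 60, and A-fibre-like neurons spread from Prph 0.19 to 55.3.

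Over the 375 neurons, each thinned to 20000 UMIs, Nefl and Nefm had a Spearman rho of 0.76, Nefl and Nefh 0.63, and Nefm and Nefh 0.61. Nefm and Prph had -0.47 and Prph and Stmn2 0.49, the latter pair both being gate genes. The neurons share 1 library, and these values describe mixtures of groups. Within groups, Nefl and Nefm had 0.91 over the 42 A-fibre-like neurons, 0.84 over the 21 Trpm8/Foxp2 and 0.76 over the 88 peptidergic neurons, but 0.32 over the 98 Mrgprd and 0.12 over the 36 C-low-threshold neurons, where the median of Nefm was 1.00 and 1.47 per 10,000. Prph and Nefl had 0.34 within A-fibre-like, 0.07 within peptidergic and -0.58 within Trpm8/Foxp2 neurons, so the negative value over all neurons (-0.25) was not seen within the A-fibre-like group.

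For each member the genes most like it over the same thinned neurons were taken from 3617 genes with a mean of at least 1 UMI. Nefl was followed most closely by Nefm, Nefh and Lynx1 (rho 0.76, 0.63 and 0.60), Nefm by Nefl, Thy1 and Fxyd7 (0.76, 0.71 and 0.69) and Nefh by Nefl, Lynx1 and Nefm (0.63, 0.62 and 0.61). Ina was most like Grik1, Phf24 and Trarg1 (0.56, 0.53 and 0.51), with no filament gene among them. Prph had Rgs10, Serpinb6a and Tubb2b (0.65, 0.63 and 0.62). Tubb3 had 3 other tubulins, Tubb5, Tuba1a and Tubb2a (0.60, 0.59 and 0.53), Stmn2 had Calm2, Tubb2b and S100a10 (0.56, 0.54 and 0.52), and Gap43 had Dpysl3, Stmn1 and Scg2 (0.56, 0.51 and 0.49). Mapt had the weakest best matches, Rtn1, Celf4 and Aplp1 (0.45, 0.42 and 0.41).

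The wider cytoskeleton was read from a list of 47 other genes: tubulins, microtubule-associated proteins, stathmins, collapsin response mediators, ankyrins, spectrins, motors and other filaments. Between A-fibre-like and all C-fibre neurons, 4 of 47 were at least 2-fold higher (8.51%) and 2 of 47 at least 2-fold lower (4.26%), both below the shares over all genes given above. The median log2 ratio was 0.06 for the list and 0.08 for all genes. The highest were Tuba4a, an alpha-tubulin, at 6.26-fold (5.67 to 6.92; 1.97 against 0.314 per 10,000) and Map2, a microtubule-associated protein of cell bodies and dendrites, at 5.38-fold (4.89 to 5.91; 2.04 against 0.379). Tubb6 (2.67-fold, on 44 UMIs in A-fibre-like neurons), Sptbn4, a spectrin of nodes of Ranvier (2.53-fold, 2.08 to 3.06), and Map7 (1.93-fold) came next.

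At the other end of that list, Gfap, the filament of astrocytes and some glia, had a ratio of 0.06 on 2 UMIs in A-fibre-like and 199 in C-fibre neurons (interval 0.0072 to 0.22). Vim (vimentin) had a ratio of 0.42 (0.39 to 0.46), Tubb2b 0.54, Ank3 0.62 and Tuba1a 0.66. Glial markers were raised in 7 of 42 A-fibre-like neurons and in 40 of the 264 C-fibre neurons, and their part in the Gfap and Vim ratios was not tested. The Nefm ratio without such neurons was 9.59.

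In 9 deep neurons Prph was under 10 per 10,000. In 4 of them no UMI of Avil, Isl1 or Pou4f1 was found, and no other deep neuron lacked all 3 genes. The 4 had 22773 to 54355 UMIs, Prph at 0 to 1.32, Nefl at 0.46 to 16.2 and Tubb3 at 14.9 to 39.4 per 10,000, and 2 were in the A-fibre-like group. A different pair of A-fibre-like neurons, at 104142 and 92681 UMIs, had Prph at 0.19 and 0.43 with Nefl at 41.7 and 46.5, Isl1 at 1.25 and 0.755, and Pou4f1 at 2.11 and 1.83. Avil, the third sensory gene, was at 0.096 and 0 in this pair, beside 4.17 pooled over the A-fibre-like group. Their Ina was at 5.67 and 6.69, beside a group median of 0.39. High neurofilament with almost no peripherin was thus present in 2 of the 42 A-fibre-like neurons, which had Isl1 and Pou4f1 but little or no Avil.

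To read the members outside neurons, the cells past the filters were placed in classes by markers that hold no member, and the level in 768 erythroid cells, which should lack neuronal genes, was taken as background from free RNA. Prph there was 1.09 per 10,000 (1.02 to 1.16), or 2.08% of its level in deep neurons, Stmn2 2.21%, Tubb3 2.60%, Ina 2.11%, Gap43 3.06% and Mapt 3.42%. The neurofilaments were higher: Nefl 5.03% (4.71 to 5.37), Nefm 5.76% (5.27 to 6.27) and Nefh 5.73% (4.90 to 6.68). The 15 neuron genes used as a reference lay between 1.17% (Prrxl1) and 3.57% (Uchl1). In UMIs of Nefl per UMI of Prph, erythroid cells had 0.978, macrophages 1.01 and endothelial cells 0.955, beside 0.405 in the deep neurons, 1.74 in the A-fibre-like and 0.180 in the Mrgprd group. The background thus held more neurofilament for its peripherin than the deep neurons as a whole, and the source of the difference was not tested.

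Across 12 classes other than neurons and erythroid cells, 17 of 108 pairs of class and member were at least 2-fold above erythroid with 20 UMIs or more. The share of all genes at least 2-fold above erythroid was far larger, from 47.8% to 76.6% by class, so these counts do not stand out, and each pair was also set against the neuron-only reference genes, whose median ratio to erythroid cells, over the 12 with enough UMIs, describes the neuronal background of a class. Several of these genes also defined the neuron class, so cells with much of them were not placed elsewhere.

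**Figure D5:**
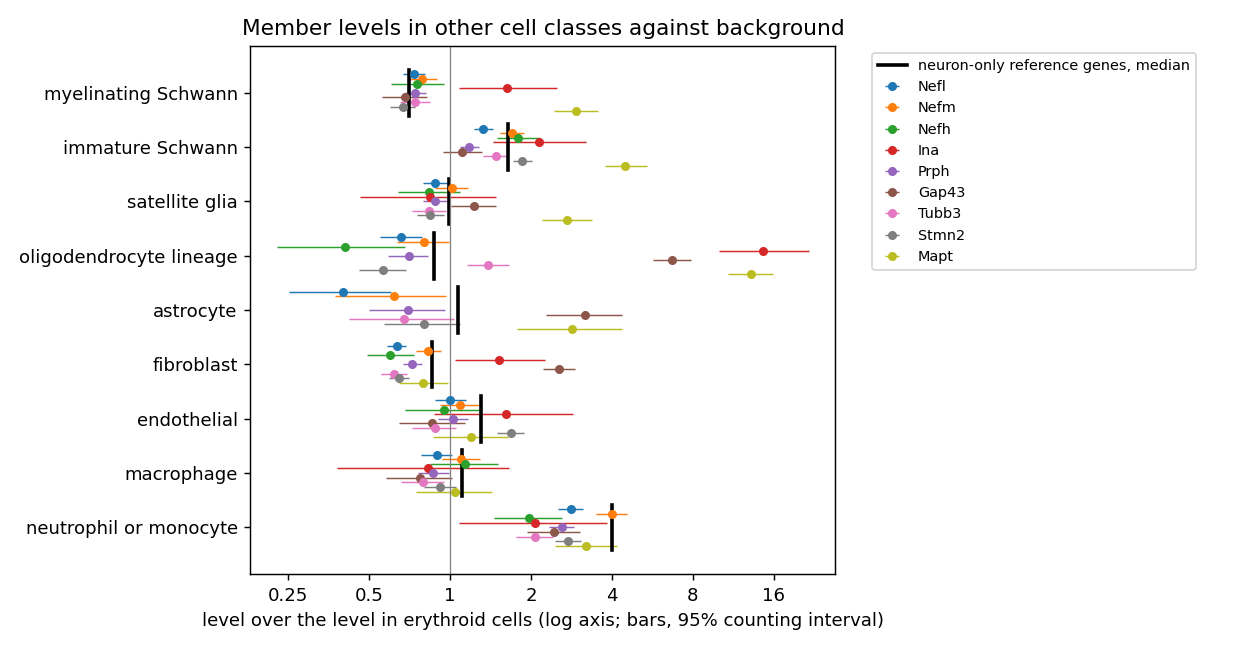
Level of each member in 9 cell classes over its level in erythroid cells (log axis, 95% counting intervals, pairs with under 10 UMIs left out), with the median ratio of neuron-only reference genes as a black bar. Mapt lies beyond the bar in the Schwann, satellite glia, oligodendrocyte lineage and astrocyte classes, and Nefl, Nefm, Nefh and Prph lie near or below it.

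Tau had the highest ratios to background in peripheral glia. Mapt was 2.93-fold above erythroid in myelinating Schwann cells (2.43 to 3.55), 4.49-fold in immature Schwann cells (3.76 to 5.40) and 2.72-fold in satellite glia (2.20 to 3.36). The reference genes in these classes were at 0.706, 1.65 and 0.993 times erythroid, and divided by them Mapt was 4.15, 2.73 and 2.74 times erythroid. Thinned to 5000 UMIs, 140 of 693 myelinating Schwann cells had a Mapt UMI (20.2%, 17.3 to 23.4), 237 of 919 immature Schwann cells (25.8%, 23.0 to 28.7) and 75 of 405 satellite glia (18.5%, 14.9 to 22.7). In erythroid cells the figure was 47 of 671 (7.0%, 5.19 to 9.21), and in macrophages 18 of 263 (6.84%, 4.11 to 10.6). Unthinned shares were 33.2%, 37.8% and 32.5% in the 3 glial classes and 14.2% in erythroid cells, at median depths of 11307, 9359, 11381 and 10064 UMIs, and thinning left out 231, 272, 66 and 97 cells. The level in these glia was 9.29% to 15.4% of that in deep neurons.

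Of the 9 members, Mapt was the only one at least 2-fold above erythroid in myelinating Schwann cells (62.9% of all genes were) and in satellite glia (71.4%), and in immature Schwann cells (76.6%) Ina joined it at 2.13-fold (1.45 to 3.20), beside a reference of 1.65. Ina in myelinating Schwann cells was at 1.63 (1.08 to 2.50), or 2.31 divided by the reference, on 71 UMIs and few cells with a UMI (3.32% at 5000 UMIs, beside 2.53% in erythroid cells). Nefl, Nefm, Nefh, Prph, Tubb3, Stmn2 and Gap43 lay at 0.67 to 1.22 times erythroid in myelinating Schwann cells and satellite glia, and at 1.11 to 1.85 times in immature Schwann cells. The 1686 cells that passed no list also had Mapt above background (3.15-fold, with a reference of 0.804), and 887 cells had no leading list.

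Oligodendrocyte lineage cells, a class of the central nervous system, had 3 of 9 members at least 2-fold above erythroid (66.6% of all genes). Mapt stood at 2.15 per 10,000, 13.1-fold above erythroid (10.8 to 15.9), Ina at 0.613, 14.5-fold (9.99 to 21.6), and Gap43 at 1.83, 6.67-fold (5.66 to 7.88), with the reference genes at 0.870. As shares of thinned cells with a UMI, the Ina ratio was 7.14. A Mapt UMI was found in 70 of 94 thinned cells (74.5%, 64.4 to 82.9) and a Gap43 UMI in 52 of 94 (55.3%, 44.7 to 65.6), beside 8.49% for Gap43 in erythroid cells. In the 44 cells with a UMI of Cspg4 (a gene of progenitors) and none of Opalin or Mog, Gap43 was 3.5 per 10,000 (3.07 to 3.98). In the 63 with a UMI of Opalin or Mog (genes of mature cells) it was 0.301 (0.204 to 0.427), close to the 0.275 of erythroid cells. Mapt was 2.50 and 1.81 and Ina 0.993 and 0.291 in the same cells. The remaining 29 cells had no UMI of Cspg4, Opalin or Mog, and Gap43 there was also high, at 3.17 (2.59 to 3.85). Their Mapt was at 2.50 and their Ina at 0.832. This split was made after the values of the class had been seen.

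Astrocytes, 42 cells, had 2 of 9 members past 2-fold (66.5% of all genes): Gap43 at 3.18 (2.28 to 4.36) and Mapt at 2.83 (1.77 to 4.35). Fibroblasts had 1 of 9 (70.7%), Gap43 at 2.53-fold (2.21 to 2.92), with a reference of 0.860. Neutrophil or monocyte cells had 7 of 9 (47.8%), but their reference genes were also at 4.01 times erythroid, and no member there exceeded that value. Endothelial cells (69.0% of all genes), mural cells (66.9%), macrophages (56.0%), B lymphocytes (56.7%) and cartilage or bone cells (58.0%) had 0 of 9 each. In none of the 12 classes did Nefl, Nefm, Nefh or Prph reach 2-fold above erythroid once divided by the reference.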

How the data were processed

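One library was used, a table of UMI counts per gene and barcode deposited by the authors, not normalised. The submitters' processing notes name mm10 and Cell Ranger 3.1.0, but the header of the deposited matrix names version 7.0.1. The sources used here do not state how intronic reads and strand were handled, which bears on Nefl and Nefm, whose exons overlap. Cells kept had at least 500 genes, 1000 UMIs and at most 20% mitochondrial UMIs. Levels are pooled UMIs per 10,000 with exact Poisson intervals, ratios have exact conditional binomial intervals and shares exact binomial (Clopper-Pearson) intervals, all at 95%. PCR and capture error are not covered.

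A subtype needed exactly 1 marker list past its limit, and a class needed its list to lead the next by 1.5 times relative to their limits. Limits were settled after the sums had been seen. The members and lists were chosen with earlier results of these data known. Named genes were the 9 members, the 5 highest and 5 lowest list genes and the 3 most alike genes per member. The subtype and class comparisons not named by these rules were chosen after their values were seen. Seeded thinning equalised depth where stated. The ratio code was tested on simulated data. Calculations ran in Python 3.11.15 with scipy 1.17.1, pandas 2.3.3 and numpy 2.4.6. The molar libraries were not analysed here, and 1 marker of the peptidergic list is not reported here.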

Additional observations from a re-analysis of the deposited data

How the results depend on the processing

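No paired analysis was possible because the ganglion has 1 library and the molar libraries were not analysed here. The summed member level of deep neurons, 169.65 per 10,000, was 168.71 and 170.61 with the depth limit halved and doubled, 170.24 with at most 10% mitochondrial UMIs, 167.98 and 170.95 with the gate at 15 and 60, 168.29 with the gate without members and 165.26 as a mean over cells. As UMIs per cell it was 1571.6, another unit. These shifts exceed the counting error.

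The 3 members at least 2-fold apart between A-fibre-like and C-fibre neurons became 4 with the marker limits halved and 5 with a 1.5-fold limit, and stayed 3 in the other alternatives, some of which were chosen after seeing the data. The 6 list genes became 16 at 1.5-fold and 3 at 3-fold, and 6 to 8 otherwise. The Nefm ratio ranged from 7.29 to 16.4, the last without Trpm8/Foxp2 neurons. The Gap43 ratio of peptidergic neurons, 2.04, lost the 2-fold call in 6 alternatives, down to 1.59 as UMIs per cell. The Nefm ratio of Trpm8/Foxp2 neurons to the other C-fibre groups ranged from 8.42 to 12.7. With halved limits 8 neurons were in the Trpm8/Foxp2 group. The 17 pairs of class and member above background became 10 when divided by the neuron-only reference and 9 as shares of cells at 5000 UMIs, and 13 to 25 otherwise. Mapt in satellite glia stayed between 2.32 and 3.11 times background, and Gap43 in fibroblasts went down to 1.96. None of the ratios put through the alternatives changed direction. The peptidergic Nefl and Nefh ratios were not among them. The ratios of A-fibre-like to Trpm8/Foxp2 neurons were repeated only without 1 neuron. Medians over cells gave no value for classes, most being 0. One library, with neurons far deeper than other cells, sets the precision.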
